A study of Mus musculus with 16 samples.

Results

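The 10 most counted α-defensin (Defa) genes of mouse Paneth cells were described in each of 16 RNA-seq libraries. The genes were Defa24, Defa30, Defa38, Defa39, Defa22, Defa21, Defa17, Defa29, Defa26 and Defa40, chosen by their total counts, the highest over all libraries among the 28 protein-coding Defa genes of a table of 55414 genes. Defa40, the last gene taken, had 300542 counts, and Defa5, the first gene left out, had 210207. The order of total counts was therefore fixed by the choice of the genes and is given as a description. The Paneth cells were purified from the small intestine of C57BL/6J mice, and age and sex of the animals are not given in the labels. Each mouse received 2 injections 1 hour apart and was sampled 3 hours after the second. The groups of 4 libraries were PBS followed by PBS (PBS+PBS), PBS followed by the cytokine TNF (PBS+TNF), DEX followed by PBS (DEX+PBS) and DEX followed by TNF (DEX+TNF). DEX is the usual abbreviation of the glucocorticoid dexamethasone and is not spelled out in the labels. The submitters call the 4 libraries of a group biological replicates.

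Paneth cells lie at the base of the small intestinal crypts and store antimicrobial proteins in granules that they release into the lumen. α-Defensins, called cryptdins in the mouse, are short cationic peptides that disrupt bacterial membranes. They are made as precursors with a signal peptide and an acidic propiece, and in the mouse the metalloproteinase MMP7 cuts the precursor to the mature peptide. The classical mature peptide is held by cysteines joined in disulphide bonds, and related cryptdin-related sequence (CRS) peptides carry other cysteine patterns. The genes lie in a cluster of near copies, so a short read can match more than 1 of them.

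The 10 genes lie on chromosome 8 of GRCm39 between Defa21 (start 21515557) and Defa24 (end 22225490), and each has 2 coding exons in its principal transcript. The second coding exon encodes the mature peptide, and its coding part without the stop codon is shown because it splits the genes into 2 classes and shows how little the copies differ. It was read from the GRCm39 genome, with in-frame cysteine codons in capitals. In the 7 genes of the first class it holds 107 bases with 6 cysteine codons, all on the plus strand.
Defa24, chr8:22225284-22225390: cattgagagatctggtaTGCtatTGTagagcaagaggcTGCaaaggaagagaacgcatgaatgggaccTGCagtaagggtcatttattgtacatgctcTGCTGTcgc
Defa30, chr8:21625410-21625516: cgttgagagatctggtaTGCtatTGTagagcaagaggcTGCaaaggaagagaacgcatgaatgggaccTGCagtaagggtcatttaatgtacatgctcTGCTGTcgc
Defa17, chr8:22146548-22146654: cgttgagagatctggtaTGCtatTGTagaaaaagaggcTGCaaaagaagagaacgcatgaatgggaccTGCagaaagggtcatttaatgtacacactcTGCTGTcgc
Defa26, chr8:22108789-22108895: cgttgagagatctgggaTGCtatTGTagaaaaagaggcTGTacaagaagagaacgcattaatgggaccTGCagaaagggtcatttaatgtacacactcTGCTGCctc
Defa40, chr8:21740368-21740474: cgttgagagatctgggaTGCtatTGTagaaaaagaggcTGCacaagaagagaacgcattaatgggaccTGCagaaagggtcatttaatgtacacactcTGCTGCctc
Defa22, chr8:21653062-21653168: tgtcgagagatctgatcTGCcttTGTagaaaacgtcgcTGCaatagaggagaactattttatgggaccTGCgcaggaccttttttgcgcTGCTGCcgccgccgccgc
Defa21, chr8:21516330-21516436: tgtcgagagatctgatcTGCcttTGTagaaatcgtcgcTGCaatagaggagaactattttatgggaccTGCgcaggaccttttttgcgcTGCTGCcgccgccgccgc

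In the 3 genes of the second class the same part holds 176 bases with 11 cysteine codons, all on the minus strand.
Defa38, chr8:21585093-21585268: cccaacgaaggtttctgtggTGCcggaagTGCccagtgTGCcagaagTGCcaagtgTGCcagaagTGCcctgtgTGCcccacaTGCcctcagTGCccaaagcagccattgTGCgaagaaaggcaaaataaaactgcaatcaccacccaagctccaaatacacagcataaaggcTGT
Defa39, chr8:22192647-22192822: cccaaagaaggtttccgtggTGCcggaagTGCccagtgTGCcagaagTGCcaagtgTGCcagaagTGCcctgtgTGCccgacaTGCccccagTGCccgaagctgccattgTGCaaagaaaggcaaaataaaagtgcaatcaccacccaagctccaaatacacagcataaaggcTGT
Defa29, chr8:21816018-21816193: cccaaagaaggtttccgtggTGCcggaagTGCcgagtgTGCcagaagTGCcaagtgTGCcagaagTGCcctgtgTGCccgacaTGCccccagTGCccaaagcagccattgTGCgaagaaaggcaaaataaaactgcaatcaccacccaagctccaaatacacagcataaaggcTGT

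Defa22 and Defa21 differed by 1 base in this part, as did Defa26 and Defa40. Defa24 and Defa30 differed by 2 bases, whereas Defa29 differed from each of Defa38 and Defa39 by 5. The repeats of TGC with 2 codons between them in the second class are the feature that sets these genes apart from the first class. Of the stretches of 75 bases in the Defa17 transcript, 91.9% also occurred in another transcript of the locus, and all of these were in Defa3. The share was 56.8% for Defa21 and 56.5% for Defa22, in both cases with the other of the pair, and 31.0% for Defa38 and 30.4% for Defa29. It was between 6.61% (Defa24) and 18.8% (Defa30) for the other 5 genes. How the authors assigned reads that match several genes is not given in the sources used here, so the counts of these near copies, of Defa17, Defa21 and Defa22 above all, are uncertain to that extent. The same holds for the low counts of the other family genes, and how far these depend on that assignment was not tested.

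Library totals lay between 7286307 and 15832111 counts. Nfkbia, which encodes the NF-κB inhibitor IκBα and is a standard TNF target, was at 277 to 337 CPM (counts-per-million of the library total) in the PBS+TNF libraries and at 330 and 382 CPM in DEX+TNF libraries 1 and 2. The libraries labelled DEX+TNF 3 and 4 had 28.3 and 41.0 CPM, against 15.6 to 27.3 CPM in the 8 libraries without TNF. For comparisons with DEX+TNF, the values that moved most without these libraries are given beside them. DEX+TNF library 4 had the highest summed CPM of the 9 enterocyte markers (813, against 31.3 to 381 elsewhere), the 4 stem cell markers (2196) and the 5 tuft cell markers (857), and the lowest sum of 7 Paneth markers outside the Defa genes (160156, with 170455 to 271416 elsewhere). Its sum of the 6 goblet cell markers was not high (3795 CPM, within a range of 3219 to 10239 CPM over all libraries). Paneth markers were high in every library, whereas stromal and red blood cell markers summed to less than 1 CPM. In such bulk samples, fewer cells of a type and less RNA per cell cannot be told apart.

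In the deposited counts, the 10 genes held 99.3% of all Defa counts, with 98.9% to 99.7% in single libraries. They took 31.9% (DEX+PBS library 4) to 58.8% (PBS+TNF library 1) of all gene counts. Among the other 18 family genes, Defa5, Defa34 and Defa3 had more than 100000 counts and 12 had 618 or fewer, with Defa2 the lowest at 17, and none was at 0 in all libraries. The authors' own transcript quantification of a typical Paneth cell experiment differed, with Defa3, Defa2 and Defa23 directly after Defa24. Here Defa23 had 35 counts. The 99.3% and all shares of family counts therefore hold for the deposited counts, and the part of read assignment in this difference was not tested. All 10 genes and 10 of the other 18 passed the filter on low counts.

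Levels are given as CPM after TMM normalization, which divides by the library total times a scaling factor. The factor ran from 0.418 (PBS+TNF library 1) and 0.503 (PBS+PBS library 4) to 1.502 (DEX+TNF library 4), and one or the other of the first 2 libraries had the highest normalized CPM of each of the 10 genes. With a factor far below 1 the normalized CPM of the defensins of a library can sum to more than the unit allows for plain CPM. Defa24 had a median of 159217 normalized CPM over the 16 libraries and ranged from 89483 to 674463. Defa30 had a median of 79984 (39923 to 344560), Defa38 of 38418 (20549 to 122417) and Defa39 of 29014 (14000 to 101218). The medians were 14602 for Defa22, 13782 for Defa21, 5441 for Defa17, 4560 for Defa29, 2310.0 for Defa26 and 1169 for Defa40. Defa24 was thus the highest of the 10 genes, also per kilobase of exon.

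Per exon length, Defa24 came first and Defa30 second in 16 of 16 libraries, and Defa26 stood above Defa40 in 16. Defa38 exceeded Defa39 per length in 15 libraries. The neighbours lower in the order changed places more often. Defa39 exceeded Defa22 in 13 libraries, and Defa22 exceeded Defa21, Defa21 exceeded Defa17 and Defa17 exceeded Defa29 in 12 each. Defa29 was above Defa26 in 9 of 16, so these neighbours did not differ beyond their spread.

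**Figure D1:**
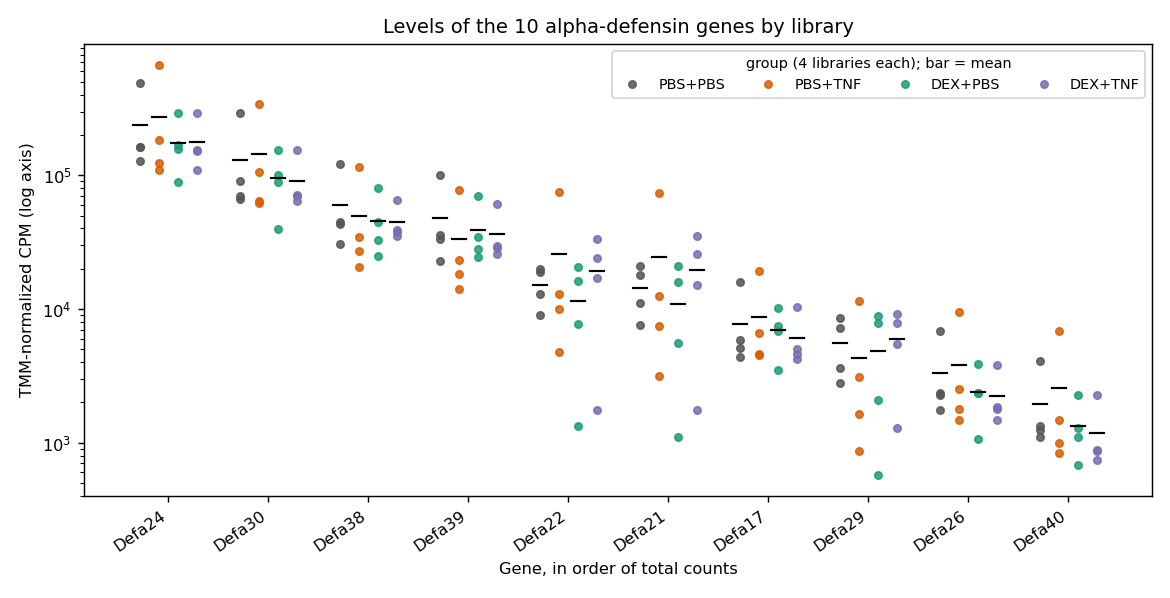
TMM-normalized CPM (log axis) of each gene in each library, coloured by group, with a black bar at the mean of the 4 libraries of a group. Within every gene the groups overlap, and Defa22, Defa21 and Defa29 reach far lower in single libraries than their group means, down to 1337, 1110.0 and 569 CPM.

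Defa21, Defa22 and Defa29 varied most. For Defa21, the PBS+PBS libraries 1 to 4 had 20812, 7606, 10999 and 18058 normalized CPM, and the PBS+TNF libraries had 74102, 12565, 7459 and 3160. The DEX+PBS libraries had 1110.0, 5599, 20816 and 16020, and the DEX+TNF libraries had 25684, 35444, 14999 and 1747. The low libraries were DEX+PBS 1, the library with the lowest total, and DEX+TNF 4, that with the highest enterocyte, stem cell and tuft cell marker sums. The highest library of every group was at 20812 or above, so the groups overlapped. The part of these library features in the low values was not tested. Defa22 had its 2 lowest levels in the same libraries, 1337 in DEX+PBS 1 and 1760 in DEX+TNF 4, and its highest, 75122, in PBS+TNF 1. Defa29 was lowest in DEX+PBS 1 (569) and PBS+TNF 4 (859) and highest in PBS+TNF 1 (11459). These 2 lowest libraries of Defa29 were not the 2 lowest of the other pair, though DEX+PBS 1 was the lowest in all 3 genes.

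The highest library exceeded the lowest by 66.8 times for Defa21, 56.2 times for Defa22 and 20.1 times for Defa29, and by 5.49 times (Defa17) to 10.1 times (Defa40) for the other 7. The SD within groups on the log2 scale was 1.71 for Defa21, 1.58 for Defa22 and 1.44 for Defa29. These values were larger than those of 99.2%, 99.0% and 98.4% of the 11809 tested genes. The other 7 genes had SDs between 0.781 (Defa17) and 0.965 (Defa40). The median over all 10 was 0.902, compared with 0.482 over all tested genes and 0.435 over the 554 tested genes whose mean reached 100 CPM.

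Expressed as a share of all Defa counts, which does not depend on library scaling, the major genes were steady and the same 3 were not. Defa24 took 38.9% to 49.1% of the family counts, Defa30 17.4% to 28.01%, Defa38 8.09% to 14.1% and Defa39 5.47% to 12.2%. Defa17 (1.19% to 2.06%), Defa26 (0.461% to 0.708%) and Defa40 (0.233% to 0.483%) stayed within about the same relative range. Defa22 ran from 0.370% in DEX+PBS library 1 to 8.83% in DEX+TNF library 2. Defa21 ran from 0.307% to 9.36% in the same libraries, and Defa29 from 0.157% in DEX+PBS library 1 to 3.40% in DEX+PBS library 4. The lowest of these shares had a 95% Wilson interval of 0.153% to 0.162%, which covers counting error only and is far narrower than the differences between libraries.

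**Figure D2:**
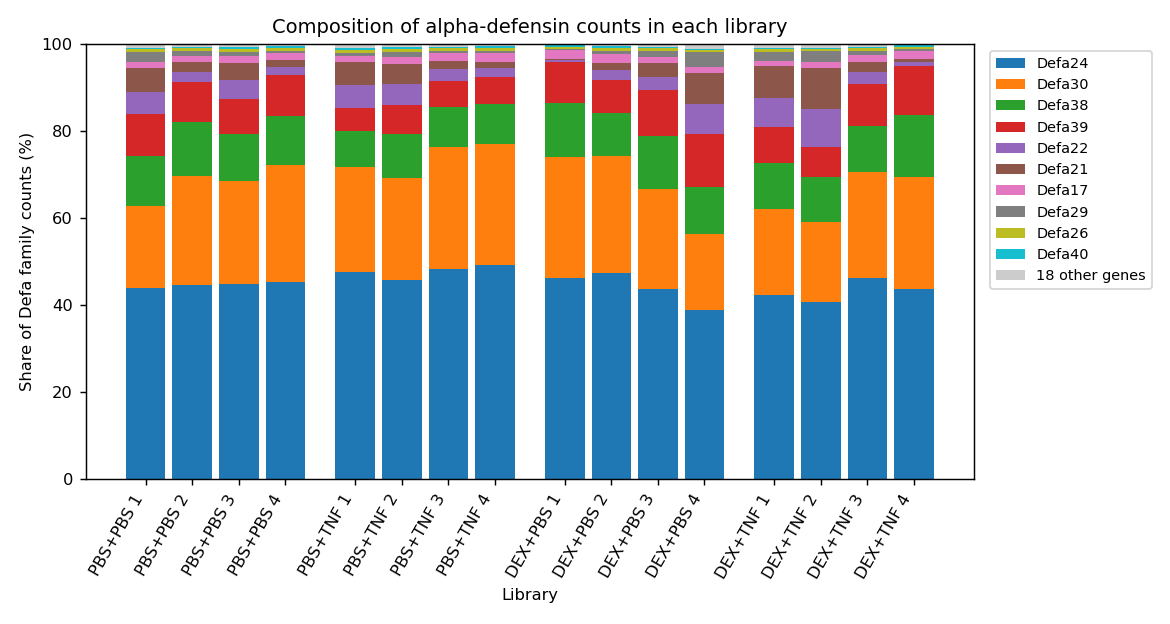
Share of all Defa counts (%) taken by each gene, stacked to 100 for each of the 16 libraries in their groups. The purple and brown bands of Defa22 and Defa21 nearly vanish in DEX+PBS 1 and DEX+TNF 4 and reach 8.83% and 9.36% in DEX+TNF 2, while Defa24 and Defa30 lead in every library.

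The effects of TNF and of DEX on the level of each gene were tested with edgeR's quasi-likelihood test across all 11809 tested genes, with Benjamini-Hochberg adjustment. None of the 10 genes passed an adjusted p of 0.05 in any of the 5 comparisons, and none had an unadjusted p under 0.05. Of all tested genes, edgeR called 12.5% for PBS+TNF against PBS+PBS, 0.00847% for DEX+PBS against PBS+PBS, and 0.339% each for DEX+TNF against PBS+TNF and against DEX+PBS. For the difference between the TNF effects after DEX and after PBS, edgeR called 0 of 11809 genes (642 had an unadjusted p under 0.05). The 10 other tested family genes were not called by edgeR in any comparison either. With DESeq2, 0 of 10 genes were called as well. Of the 11809 genes, DESeq2 called 2061 for PBS+TNF against PBS+PBS and 7 for DEX+PBS against PBS+PBS. It called 274 for DEX+TNF against PBS+TNF, 259 for DEX+TNF against DEX+PBS and 9 for the difference between the TNF effects.

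After TNF without DEX, log2 fold changes ran from -0.54 ± 0.63 for Defa39 (SE, n = 4 per group, edgeR adjusted p = 0.656) to 0.76 ± 0.89 for Defa22 (adjusted p = 0.656). The median of the 10 was 0.19, against -0.03 over all tested genes. After DEX without TNF, all 10 estimates lay below 0, from -0.53 ± 0.65 for Defa40 to -0.15 ± 0.56 for Defa17, with a median of -0.40 and edgeR adjusted p values of 1. As the levels of the genes were correlated across libraries, their common sign is not 10 separate observations. In DEX+TNF against PBS+TNF, estimates ran from -1.10 ± 0.65 for Defa40 (edgeR adjusted p = 0.543) to 0.49 ± 0.83 for Defa29, with a median of -0.48. In DEX+TNF against DEX+PBS they ran from -0.21 ± 0.56 for Defa17 to 0.84 ± 0.96 for Defa21, with a median of -0.06. The difference between the TNF effects after DEX and after PBS ran from -0.57 ± 0.91 for Defa40 to 0.68 ± 1.17 for Defa29.

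SEs were 0.56 to 0.96 in the 4 comparisons between groups and 0.79 to 1.35 for the difference of TNF effects. Changes of this size thus lay within the spread between libraries, and a change of level by TNF or DEX was not detectable here. Without PBS+TNF library 1 the estimate of Defa22 after TNF turned to -0.73 and that of Defa40 in DEX+TNF against PBS+TNF to 0.12. Without PBS+PBS library 4 the estimate of Defa39 after TNF turned to 0.10 and that of Defa40 after DEX to 0.12. These are the 2 libraries with the lowest scaling factors. Without DEX+TNF libraries 3 and 4, 0 of 10 genes were called in each comparison. Of the 12223 genes tested in that fit, 17.7% were called for PBS+TNF against PBS+PBS, 0.0164% for DEX+PBS against PBS+PBS, 10.5% for DEX+TNF against DEX+PBS and 0% for DEX+TNF against PBS+TNF (1206 had an unadjusted p under 0.05 with edgeR). For the difference of TNF effects, 0 were called (674 at an unadjusted p under 0.05). In DEX+TNF against PBS+TNF the estimates without these libraries were 1.008 for Defa29 and -1.53 for Defa40, and in DEX+TNF against DEX+PBS they were 1.49 for Defa21 and -0.59 for Defa17. The difference of TNF effects was then 1.199 for Defa29 and -1.010 for Defa40. These estimates lay farther from 0 than with all libraries, and none passed the test.

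**Figure D3:**
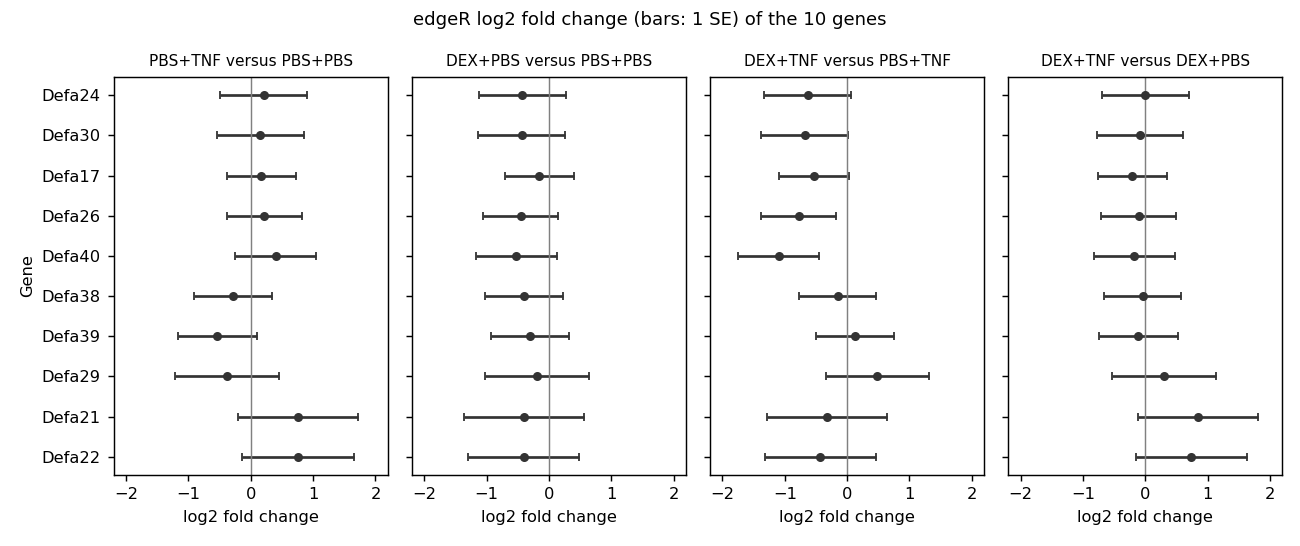
Log2 fold change from edgeR (points) with 1 SE on each side (bars) of the 10 genes in the 4 comparisons between groups of 4 libraries. The estimates lie between -1.10 and 0.84, and the widest bars are those of Defa21 and Defa22.

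The composition of the family, in contrast to its level, separated the PBS+TNF libraries from the PBS+PBS libraries for 4 of the 10 genes without overlap. Of all 28 family genes, 5 (17.9%) had a share with no overlap in this comparison. The Defa39 share was 9.53%, 9.19%, 8.07% and 9.34% in PBS+PBS and 5.47%, 6.68%, 6.14% and 6.27% in PBS+TNF. The Defa38 share was 11.6%, 12.3%, 10.8% and 11.3% in PBS+PBS and 8.09%, 10.1%, 9.17% and 9.20% in PBS+TNF. Every PBS+TNF library was therefore lower in both genes, which encode peptides with 11 cysteines, than every PBS+PBS library. The mean Defa39 share was 9.03% ± 0.659 in PBS+PBS and 6.14% ± 0.501 in PBS+TNF (SD, n = 4), a difference of -2.89 percentage points. The mean Defa38 share was 11.5% ± 0.636 and 9.13% ± 0.804, a difference of -2.37 points. The Defa24 share was higher by 2.93 points, at 47.6% ± 1.46 against 44.7% ± 0.612, and that of Defa26 by 0.0384 points, at 0.663% against 0.625%. With counts divided by exon length first, the Defa24 share overlapped between the groups. The shares of a library have a fixed sum, so differences of several genes, here and in the later comparisons, are not separate observations. Each of these 4 had p = 0.0286 in the two-sided exact permutation test, the smallest p that 4 against 4 libraries allow, and an adjusted p of 0.143 over the 40 tests of 10 genes in 4 comparisons. None of the 40 passed the threshold after correction for the number of tests. With this smallest p, most of the 40 would have to reach it for any to pass. The test could therefore not call a few differences whatever their size, and they are given as a description. The summed enterocyte markers were also lower in PBS+TNF (31.3 to 117 plain CPM) than in PBS+PBS (190.1 to 381). The sum of the 7 Paneth markers was lower as well (170455 to 197759 against 201717 to 271416 plain CPM). Singly, Lyz1 (101444 against 139049) and Itln1 (51918 against 68533) had lower mean normalized CPM in PBS+TNF. Mmp7, Ang4 (54516 against 42469), Pla2g2a, Sox9 and Reg3g had higher means there. The part of these marker sums in the shares was not tested.

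In DEX+TNF the Defa39 share was 8.23%, 6.86%, 9.71% and 11.4%, and the Defa38 share was 10.6%, 10.3%, 10.4% and 14.1%, again all above the PBS+TNF libraries. The differences were 2.92 points for Defa39 and 2.23 points for Defa38. Defa26 and Defa40 were lower in DEX+TNF than in PBS+TNF without overlap, with differences of -0.116 and -0.120 points. With counts divided by exon length, the Defa40 share overlapped. Of the 28 family genes, 4 (14.3%) had a share with no overlap in this comparison, all of them among the 10. These 4 also had p = 0.0286 by the exact permutation test and an adjusted p of 0.143, and both comparisons share the PBS+TNF libraries. With DEX+TNF libraries 1 and 2 alone, whose Nfkbia level was that of TNF-treated mice, the differences were 1.41 points for Defa39 and 1.31 points for Defa38. In DEX+PBS the Defa39 share was 9.50%, 7.39%, 10.5% and 12.2% and overlapped with that of PBS+PBS (exact permutation p = 0.457). The largest difference in DEX+TNF against PBS+TNF was that of Defa24, whose groups overlapped (-4.47 points, exact permutation p = 0.0571, adjusted p = 0.254), and it was -6.22 points without DEX+TNF libraries 3 and 4. The Defa30 share overlapped as well, with differences of -3.74 points in this comparison (adjusted p = 0.571 by the exact permutation test) and 2.38 points in PBS+TNF against PBS+PBS (adjusted p = 0.662 by the exact permutation test). In DEX+TNF against DEX+PBS the largest difference was that of Defa21 (1.88 points, exact permutation p = 0.486, adjusted p = 0.810). This value rested on single libraries. It was 5.25 points without DEX+TNF libraries 3 and 4 together. Leaving out 1 DEX+TNF library at a time gave 1.13 points for library 1, 0.396 for library 2, 2.72 for library 3 and 3.28 for library 4. Leaving out DEX+PBS library 1 gave 0.977 points, and leaving out library 4 of that group gave 3.20.

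In the other comparisons, the percentage of the 28 family genes whose share did not overlap between groups was 3.57% for DEX+TNF against DEX+PBS and 0% for DEX+PBS against PBS+PBS, and none of these genes was among the 10. The 3 genes with 11 cysteine codons together took 21.8% ± 1.55 of the family counts in PBS+PBS, 16.0% ± 1.44 in PBS+TNF, 22.6% ± 3.56 in DEX+PBS and 21.9% ± 2.86 in DEX+TNF (SD, n = 4). The highest PBS+TNF library (17.87%) lay just below the lowest library of the other groups (17.96%, DEX+PBS 2). This sum was formed after its members' values had been seen and was not tested. Counted relative to all counts outside the Defa genes, the same 8 gene and comparison pairs overlapped between groups. The amount of each gene relative to the rest of the transcriptome thus did not separate the groups.

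The ratio of Defa38 to Defa39 counts, which stays within the class, was 1.47 to 1.51 in the 4 PBS+TNF libraries and 1.21 to 1.34 in PBS+PBS. It was 1.07 to 1.501 in DEX+TNF and 0.885 to 1.35 in DEX+PBS. Defa39, whose product carries the same cysteine pattern as that of Defa38, was thus the lower of both by a wider margin in the PBS+TNF libraries than in the PBS+PBS libraries.

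Co-variation between copies was measured as Pearson's r of log2 normalized CPM over the 16 libraries for all 45 pairs, with permutation p values adjusted over the 45. All 45 r lay above 0, from 0.277 to 0.993 with a median of 0.843, and 25 passed an adjusted p of 0.05. The genes formed 2 sets. Defa24, Defa30, Defa38, Defa39, Defa17, Defa26 and Defa40 correlated with each other at r between 0.830 and 0.993, and Defa21, Defa22 and Defa29 with each other at r between 0.905 and 0.993. Between the sets r was 0.277 to 0.552, and only Defa39 with Defa29 passed the threshold.

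The highest r were those of Defa24 with Defa26 (r = 0.993, Spearman's rho = 0.988), of Defa22 with Defa21 (r = 0.993, rho = 0.991) and of Defa30 with Defa17 (r = 0.987, rho = 0.900), each at an adjusted permutation p of 2.4e-05, from the smallest p of 1e-05 that 100000 permutations can give. Without the 2 libraries farthest from the median of the first gene named they were 0.979, 0.993 and 0.968. The libraries left out were PBS+TNF 1 and PBS+PBS 4, except DEX+PBS 1 and DEX+TNF 4 for Defa22 with Defa21. The lowest were those of Defa17 with Defa29 (r = 0.277, rho = 0.162, adjusted permutation p = 0.301), Defa30 with Defa29 (r = 0.302, rho = 0.291, p = 0.263) and Defa21 with Defa17 (r = 0.321, rho = 0.115, p = 0.233). Without the 2 farthest libraries these were -0.03, -0.01 and 0.41. With values centred on the group means, which removes differences between groups, 24 pairs passed and all 45 r stayed above 0.

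All of these r share the library scaling. On the log2 share of family counts, where a rise of 1 gene lowers the others, 21 pairs passed, 12 of them positive and 9 negative. The Defa21 and Defa22 pair stayed at r = 0.989, Defa21 and Defa29 at 0.904, and Defa24 and Defa30 at 0.863. Defa38 and Defa39 correlated at 0.837, and each ran against Defa24, at -0.40 and -0.57. Defa30 ran against Defa29 at -0.92. With plain CPM, 19 pairs passed, 17 of them positive and 2 negative, and 29 of 45 r lay above 0. Scaled to the counts outside the Defa genes, r was 0.621 to 0.991 within the sets and -0.21 to 0.323 between them, so the positive sign between the sets depended on the scaling.

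**Figure D4:**
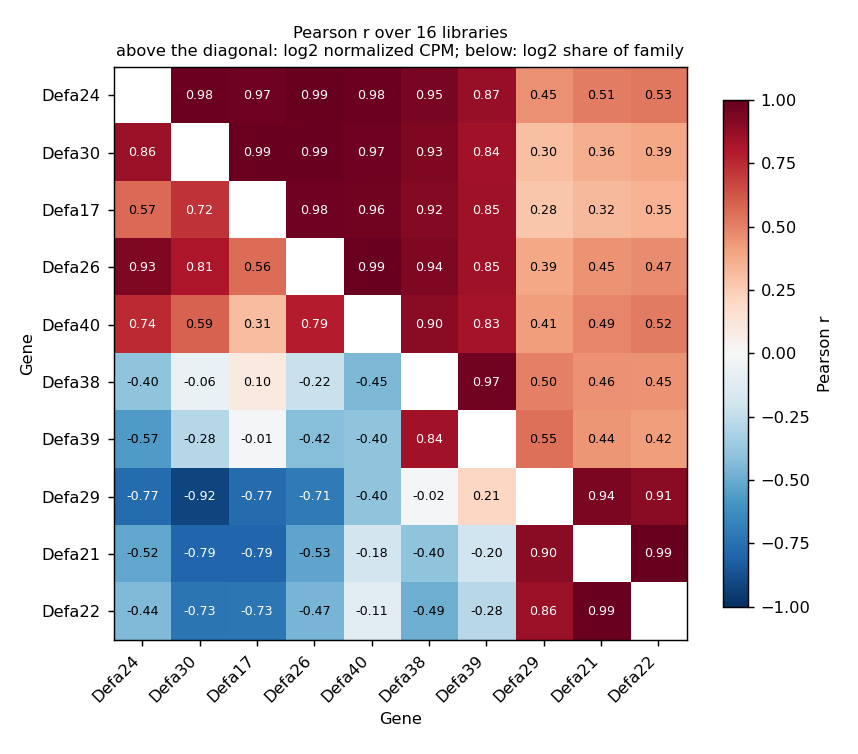
Pearson r between genes over 16 libraries, from log2 normalized CPM above the diagonal and from the log2 share of family counts below it, on a scale from -1 (blue) to 1 (red). The block of Defa29, Defa21 and Defa22 stays red on both scales, while their r with Defa24, Defa30, Defa17 and Defa26 turn from weakly positive to negative.

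High identity of coding sequence went with high r in some pairs and not in those of Defa29. Defa24 with Defa30, Defa24 with Defa17, Defa30 with Defa17, Defa38 with Defa39, Defa22 with Defa21 and Defa26 with Defa40 were 95.7% to 99.3% identical. Their r was 0.966 to 0.993. Over the whole principal transcript, Defa29 was 67.3% identical to Defa38 and 96.5% to Defa39. Defa29 is 97.4% identical to Defa38 over the coding sequence, and its r with Defa38 was 0.505 (adjusted permutation p = 0.0707). Its r with Defa39, at 96.6% identity, was 0.552 (adjusted permutation p = 0.0468, rho = 0.524 with an adjusted p of 0.0718). Without PBS+PBS 4 and PBS+TNF 1, the 2 libraries farthest from the median of Defa39, it was 0.458. With Defa21, at 64.8% identity and on the other strand, Defa29 had r = 0.938, and with Defa22, at 64.7% identity, 0.905 (both with an adjusted permutation p of 2.4e-05). The count ratio of Defa29 to Defa39 ran from 0.0166 in DEX+PBS library 1 to 0.356 in DEX+TNF library 2, by 21.5 times. The ratio of Defa21 to Defa22 ran only from 0.669 to 1.09, by 1.64 times, and that of Defa24 to Defa30 from 1.67 to 2.33. Over the 45 pairs, r of identity and co-variation was 0.293, a description over pairs that share genes and libraries.

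**Figure D5:**
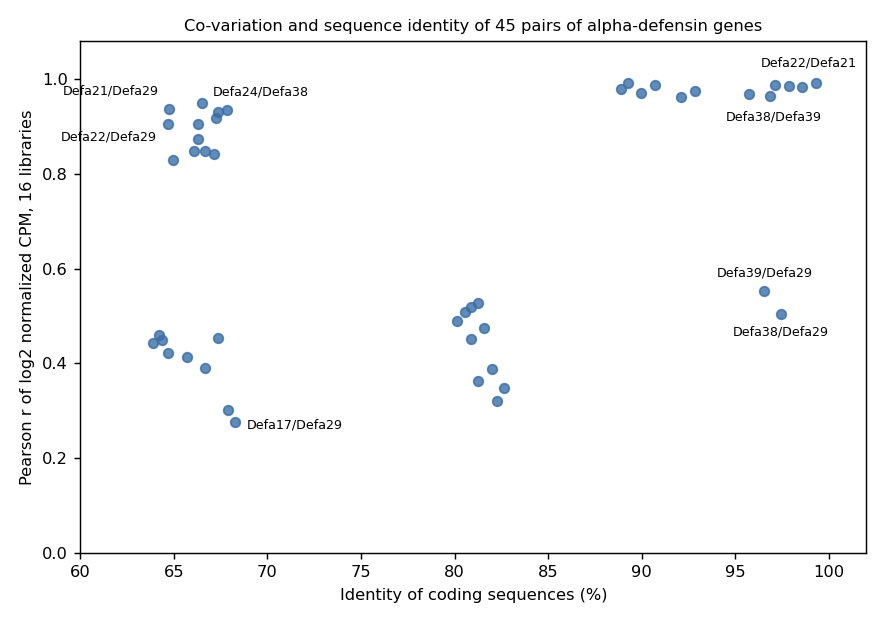
Pearson r of log2 normalized CPM over 16 libraries (vertical axis) against the identity of the coding sequences in percent (horizontal axis) for the 45 pairs, with 8 pairs named. Defa29 with Defa38 or Defa39 lies low at over 96% identity, and Defa29 with Defa21 or Defa22 lies high at under 65%.

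The same sets appeared only in part among genes outside the 10. By r over the 16 libraries, given as a description, the tested genes most like Defa21 after Defa22 were Defa35 (0.973) and Defa34 (0.960), and those most like Defa22 after Defa21 were Defa34 (0.980) and Defa5 (0.955). Those most like Defa29 were Defa42 (0.947) and Defa35 (0.939), followed by Defa21. These are all family members of low or intermediate count, and Defa42 had only 0 to 58 counts per library, close to the floor. Some family genes lay near both sets. Defa41 had r = 0.826 with Defa22 and 0.814 with Defa40, and Defa5 had 0.735 with Defa24 beside its 0.955 with Defa22. Whether reads shared between near copies add to these r was not tested. In contrast, Defa24 was closest to Defa26, Defa30 and Ggh (0.979), which encodes γ-glutamyl hydrolase, an enzyme that shortens folate polyglutamates. Defa17 was closest to Defa30, Coq2 (0.976), an enzyme of ubiquinone synthesis, and Defa26.

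Defa38 was closest to Defa39, Srp14 (0.953), a protein of the signal recognition particle, and Ggh (0.953). Defa39 was closest to Defa38, Blvrb (0.954), which encodes biliverdin reductase B, and the chemokine gene Ccl6 (0.951). Defa40 was closest to Defa26, Defa24 and Rps27l (0.978), and Defa30 and Defa26 were closest to members of the 10 only. The 7 genes of the larger set had 611 to 771 tested genes at r above 0.8, whereas Defa21, Defa22 and Defa29 had 13, 20 and 12.

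The bases upstream of the annotated start are shown for Defa22, Defa30 and Defa38 because their genes fall into both sets. They come from RefSeq (GRCm38.p6), where 4 of the 10 genes matched. For Defa22 all 250 upstream bases are shown. For Defa30 the first 220 and for Defa38 the first 207 are shown, so these stretches end before the annotated start and line up on TATAAA instead, which begins 31 bases before the annotated start in Defa22, 61 in Defa30 and 74 in Defa38. Capitals mark 3 motifs. The TATA box letters TATAAA are shown with the base before them, with which they match the CDX motif TTTATNG on the opposite strand. The TCF/LEF motif of the Wnt pathway, which drives Paneth cell genes, is CTTTGAT and appears as its reverse complement. The core of the glucocorticoid response element, TGTTCT, also appears as its reverse complement, in Defa30.
Defa22, GRCm38.p6 chr8:21162027-21162276, plus strand: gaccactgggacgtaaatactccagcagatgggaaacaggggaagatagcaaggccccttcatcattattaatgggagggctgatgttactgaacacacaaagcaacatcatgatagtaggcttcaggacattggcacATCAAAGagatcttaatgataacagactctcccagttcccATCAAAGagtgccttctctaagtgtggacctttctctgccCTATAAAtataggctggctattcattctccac
Defa30, GRCm38.p6 chr8:21134400-21134619, plus strand: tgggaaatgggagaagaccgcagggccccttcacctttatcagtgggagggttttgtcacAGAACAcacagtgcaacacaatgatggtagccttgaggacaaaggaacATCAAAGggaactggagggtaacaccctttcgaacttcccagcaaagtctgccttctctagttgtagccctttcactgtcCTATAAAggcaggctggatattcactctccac
Defa38, GRCm38.p6 chr8:21096094-21096300, minus strand: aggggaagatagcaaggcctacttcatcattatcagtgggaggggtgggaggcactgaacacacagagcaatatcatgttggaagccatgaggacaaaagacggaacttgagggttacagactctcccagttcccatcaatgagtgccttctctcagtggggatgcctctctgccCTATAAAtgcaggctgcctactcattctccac

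The 250 upstream bases of Defa21 and Defa22, the pair with r = 0.993, were 100% identical. Those of Defa21 and Defa30 were 61.8% identical, those of Defa21 and Defa38 57.6% and those of Defa38 and Defa30 69.0%. All 4 held TATAAA on the gene's strand, which 13.6% of the 32851 mouse promoters in the table hold on either strand. CTTTGAT (3.73% of promoters) occurred on the opposite strand at 2 places in Defa21 and Defa22, at 1 in Defa30 and at none in Defa38. TTTATNG, the CDX motif (10.9% of promoters), occurred once in each on the opposite strand and overlapped the TATAAA match. TGTTCT (19.0% of promoters) occurred once, in Defa30. These are matches of letters and not measured binding sites.

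A list of 14 genes of defensin production and of other Paneth cell products was read from the same test. It held Mmp7, Tcf7l2, Ctnnb1, Sox9, Spdef, Atoh1, Gfi1, Xbp1 and Nod2. The other products on it were Lyz1, Ang4, Pla2g2a, Itln1 and Reg3g. Of these 14 genes, 2 were called after TNF without DEX, where 12.5% of all tested genes were called, and none in the other 4 comparisons. Nod2, a sensor of bacterial peptidoglycan, rose by a log2 fold change of 4.97 ± 1.03 (edgeR adjusted p = 0.00527), from 0.295 to 10.6 normalized CPM on average. Gfi1, a transcription factor of the secretory lineage, fell by 2.05 ± 0.36 on the log2 scale (edgeR adjusted p = 0.00199), from 17.2 to 4.01 CPM. Mmp7, the activating protease, had means of 7126 ± 5219.7 CPM (SD, n = 4) in PBS+PBS, 7929.8 ± 6485 in PBS+TNF, 6599.8 ± 3461 in DEX+PBS and 5807 ± 3537 in DEX+TNF, with log2 fold changes between -0.45 and 0.15 in the 4 comparisons between groups. Lyz1, the Paneth cell lysozyme, had means of 139049, 101444, 92332 and 126874 CPM in the groups in the same order, with log2 fold changes between -0.59 and 0.46. Mmp7 and Lyz1 passed the test in no comparison.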

How the data were processed

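Sorted Paneth cells were profiled by RNA-seq (TruSeq Stranded mRNA kit) in 16 libraries, 4 per group. The authors deposited raw read counts per Ensembl gene, aligned to mm39 with STAR (2.7.10a per the submitters' processing notes). The program that counted genes, its strand setting and its treatment of reads with several matches are not given in the sources used here. Columns were assigned to samples by the sample names. Gene names were taken from GENCODE M39 by identifier (54749 of 55414 matched).

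The 10 genes and all lists were chosen with earlier results of these data known. All libraries entered 1 edgeR 4.0.16 quasi-likelihood fit (R 4.3.3, TMM factors, default expression filter, 11809 genes tested), with Benjamini-Hochberg adjustment over all tested genes, a threshold of 0.05 and DESeq2 1.42.0 as an alternative. The SE is the absolute log2 fold change over the square root of F. Shares of family counts were compared by two-sided exact permutation of 4 against 4 libraries (70 assignments). Correlations used log2 normalized CPM with a prior count of 2 and 100000 permutations. Named were the highest and lowest log2 fold change per comparison, the largest share difference per comparison, the 3 highest and 3 lowest r, and the 3 most alike tested genes per member. Genes whose shares did not overlap between groups and further pairs were named after their values had been seen. The edgeR step was run on simulated counts with the same spread for all genes and libraries that differed only in total. That run cannot show how the test performs at the wider spread and unequal scaling factors seen here. Library totals of 7286307 to 15832111 give small counting errors for all 10 genes. Other normalizations and filters, left-out libraries and a replicate block were tried.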

Additional observations from a re-analysis of the deposited data

Results flagged for a closer look

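In 80 groups of 4 values (10 genes, 4 groups, level and share), 6 had 1 library set apart from the other 3 by more than Dixon's 95% critical gap, and chance alone gives about 1 in 20. The DEX+TNF library 3 was highest in log2 normalized CPM for Defa30 (17.23, others 15.97 to 16.12), Defa38 (16.00, others 15.11 to 15.25), Defa39 (15.90, others 14.66 to 14.85) and Defa40 (11.14, others 9.53 to 9.78). The scaling factor of this library, 0.755, was the lowest of its group, and its Nfkbia level was 28.3 CPM. PBS+PBS library 4 was highest for Defa40 (11.98, others 10.11 to 10.38), with a scaling factor of 0.503. DEX+TNF library 4 had the highest Defa38 share (14.1%, others 10.3% to 10.6%) together with the highest enterocyte, stem cell and tuft cell marker sums. The part of these library features in the values was not tested.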

How the results depend on the processing

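No count of called genes or pairs left its range of 1.5 times under any alternative: 0 of 10 genes in each comparison and 19 to 32 of 45 pairs (25 as reported). The pairs were counted in either direction: with plain CPM 2 of the 19 were negative, and on the log2 share 9 of 21. The shares stayed at 0 of 40, which says nothing about stability because the smallest p of the test, 0.0286, made any call unlikely in advance. On the log2 share, 9 of the 25 pairs called as reported had r below 0, all of them between Defa38 or Defa39 and a gene with 6 cysteine codons. The other values given here had not passed a test as reported. With plain CPM, relative to counts outside the Defa genes, and on the log2 share, r was -0.64, -0.21 and -0.77 for Defa17 with Defa29, -0.47, -0.11 and -0.92 for Defa30 with Defa29, and -0.58, -0.14 and -0.79 for Defa21 with Defa17. These 3 are the lowest pairs, all between the 2 sets. Relative to counts outside the Defa genes, the Defa39 difference of DEX+PBS against PBS+PBS was -0.339 counts per 100 such counts. Leaving out each library in turn, log2 fold changes after TNF ran from -1.39 to 0.10 for Defa39 and from -0.73 to 1.12 for Defa22, and after DEX from -0.40 to 0.45 for Defa17 and from -0.91 to 0.12 for Defa40. They ran from -1.61 to 0.12 for Defa40 in DEX+TNF against PBS+TNF, from -0.60 to 0.035 for Defa17 in DEX+TNF against DEX+PBS, and from -1.21 to 0.63 for Defa40 in the difference of TNF effects. The reversals came without PBS+PBS 4, PBS+TNF 1, DEX+PBS 3 or DEX+PBS 4, and their cause was not tested.

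The replicate numbers shared by the groups were not taken as pairs: deviations from group means of same-numbered libraries correlated at -0.365 to 0.504 (median 0.115), against -0.564 to 0.486 (median -0.061) for different numbers. The libraries numbered 2 correlated at 0.153 to 0.412, and 7 of 16 libraries were closest to 1 of their own number. With the replicate block, 0 of 10 genes were called in each comparison, 0 of 40 shares and 25 pairs, the same counts as without it. Over all 11809 tested genes the block did change calls. For DEX+TNF they went from 40 to 0 against DEX+PBS and from 40 to 16 against PBS+TNF. For PBS+TNF against PBS+PBS they went from 1476 to 1482, and DEX+PBS against PBS+PBS stayed at 1. The 0 of 40 shares say nothing about stability: with 0.0286 as the smallest p, most of the 40 would have to reach it for any to pass, and with the block or a library left out there are fewer assignments still. The exclusion of DEX+TNF libraries 3 and 4 and of DEX+PBS 1 with DEX+TNF 4 was chosen after seeing the data; without the former 24 pairs passed and without the latter 31. Depth does not limit these genes, but 4 libraries per group with SEs of 0.56 to 0.96 in the 4 comparisons between groups do.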

Other observations

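Counts were also assigned to Defa pseudogenes. Defa-ps6 had 85453 counts over the 16 libraries and ranged from 175 to 603 CPM, and Defa-ps7 (13841 counts) and Defa-ps1 (11786 counts) followed. Of 17 named Defa pseudogenes, 6 had no count in any library. Whether these counts come from transcripts of the pseudogenes or from reads of the near-identical coding genes was not tested.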
